A study of Mus musculus with 25 samples.

Results

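The nuclear factor I (NFI) genes Nfia, Nfib, Nfic and Nfix encode the 4 members of a family of transcription factors, and they are described here in 25 single neurons of the mouse hypothalamus. All 4 were taken by name, out of 30903 gene symbols in the deposited table, and each stood on 1 row. Detection of a gene in a cell was set at 10 RPKM (reads per kilobase of exon, scaled to the reads of each cell) or above. The tissue was the arcuate nucleus with the median eminence, pooled from 2 adult males of a (C57BL/6 x DBA)F2 background whose ages averaged 63 days. All of them carried RIP-Cre, in which a rat insulin promoter drives Cre recombinase, and the label was green fluorescent protein from an adeno-associated virus that needs Cre to be expressed. GFP-positive cells were picked by hand after papain digestion, so all 25 cells belong to 1 group and 1 pooled sample. No label ties a cell to a mouse. Cells are not replicates of a condition, so no p-value or test between groups appears here. Cells are called by the numbers in their labels.

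NFI proteins bind DNA as dimers, of 1 member or of a pair of members, at a palindrome made of the letters TTGGC, a spacer of 5 bases and GCCAA, and more weakly at a single TTGGC arm. They are known for the switch of neural progenitors from making neurons to making glia, for the late maturation of neurons such as cerebellar granule cells, and as marks of late-born neurons in several parts of the nervous system. In the hypothalamus, Nfia, Nfib and Nfix are known from tanycytes, the glia-like cells that line the ventricle beside the arcuate nucleus.

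The 4 genes share their DNA-binding domain, which bears on how well reads from that part can be given to 1 gene. Most of that domain is encoded by exon 2, which is 532 bases long in each gene (GENCODE M21, GRCm38). All exon bases came to 6630 for Nfic, the shortest, and 14957 for Nfib, the longest. Of these 532 positions, 351 (66.0%) held the same base in all 4 genes. Between pairs of genes, identity over the exon ran from 75.8% for Nfia and Nfic to 82.0% for Nfic and Nfix. The stretch of 60 bases that the 4 genes have most in common, with 48 positions alike, is printed first, to show how the genes differ even there. It lies at chr4:97783134-97783193 on the plus strand for Nfia, and on the minus strand at chr4:82498658-82498717 for Nfib, chr10:81420687-81420746 for Nfic and chr8:84772204-84772263 for Nfix. Capitals mark positions that are not the same in all 4.
Nfia: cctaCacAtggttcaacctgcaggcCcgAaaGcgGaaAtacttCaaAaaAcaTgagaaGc
Nfib: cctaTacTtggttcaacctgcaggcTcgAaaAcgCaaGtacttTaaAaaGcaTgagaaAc
Nfic: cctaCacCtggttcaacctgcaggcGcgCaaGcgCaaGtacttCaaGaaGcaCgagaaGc
Nfix: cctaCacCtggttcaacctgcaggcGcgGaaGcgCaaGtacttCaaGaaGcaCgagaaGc

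The stretch of exon 2 with the fewest shared positions, 29 of 60, lies at its 3′ end and is shown for contrast. Its positions are chr4:97783552-97783611 for Nfia, chr4:82498240-82498299 for Nfib, chr10:81420269-81420328 for Nfic and chr8:84771786-84771845 for Nfix. Capitals again mark positions that are not the same in all 4.
Nfia: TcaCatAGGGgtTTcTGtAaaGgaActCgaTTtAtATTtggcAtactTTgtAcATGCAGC
Nfib: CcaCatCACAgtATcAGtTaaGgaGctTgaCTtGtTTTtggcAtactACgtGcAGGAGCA
Nfic: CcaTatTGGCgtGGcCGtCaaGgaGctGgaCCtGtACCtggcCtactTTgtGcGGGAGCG
Nfix: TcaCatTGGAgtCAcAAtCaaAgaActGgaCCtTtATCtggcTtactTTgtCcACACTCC

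The longest run of bases identical between any pair of the 4 genes, over all annotated transcripts, was 32 bases. It is shared by Nfic and Nfix and begins within the first of the 2 stretches. Read length is not given in the sources used here, nor is the way in which reads matching more than 1 gene were counted.
Nfic and Nfix: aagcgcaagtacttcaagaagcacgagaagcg

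In some cells the values of these genes differed widely. Nfix stood at 30.95 RPKM or more in cells 24, 25, 27 and 34, where Nfic was listed at 0, and Nfic stood at 22.8 and 36.2 RPKM in cells 5 and 9, where Nfix was listed at 0. Nfib and Nfix share a run of 21 bases, and Nfib was listed at 0 in cells 10, 13 and 17, where Nfix stood at 12.1 to 50.8 RPKM. In other cells 2 of these genes were detected together, Nfic with Nfix in cells 13, 14 and 17 and Nfib with Nfix in cells 25, 27 and 34. The part of shared reads there was not tested.

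At 10 RPKM, Nfix was the NFI gene detected in the largest number of cells, and it reached the highest level. At 1 RPKM Nfix was in 11 cells and Nfic in 12. With 20 or more estimated reads as the level, Nfix was in 10 cells and Nfic in 11. Nfix lies on chromosome 8 from 84699876 to 84800344 on the minus strand. It was detected in 8 of 25 cells (32%, exact Clopper-Pearson 95% interval 14.9 to 53.5%). Its level in these was 55.55 RPKM in cell 25, 50.8 in cell 13, 46.7 in cell 24, 36.9 in cell 27, 30.95 in cell 34, 28.0 in cell 14, 23.7 in cell 10 and 12.1 in cell 17. A further 6 cells had a value above 0 but below the level of detection, at 7.68 RPKM in cell 11, 2.58 in cell 43, 1.36 in cell 31 and 0.72 or less in cells 12, 15 and 32. The other 11 cells were listed at 0. Thus 7 of the 8 cells stood clear of the threshold by more than a factor of 2, and the cells just inside and just outside it were cell 17 and cell 11.

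Nfic, on chromosome 10 from 81396186 to 81455635 on the minus strand, was detected in 5 cells (20%, interval 6.83 to 40.7%). Its level was 38.6 RPKM in cell 13, 36.2 in cell 9, 24.65 in cell 14, 22.8 in cell 5 and 22.4 in cell 17. Like Nfix it was above 0 in 14 cells, but 9 of these were below the level, at 0.35 to 9.59 RPKM with a median of 2.42 RPKM. Cell 1, at 9.59 RPKM, was just outside the threshold.

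Nfib and Nfia were sparse. Nfib, on the minus strand of chromosome 4 from 82290173 to 82705750, was detected in 3 cells (12%, interval 2.55 to 31.2%), at 31.9 RPKM in cell 25, 28.95 in cell 27 and 16.5 in cell 34. Another 5 cells lay between 0.03 and 4.60 RPKM and 17 were listed at 0. Nfia, on the plus strand of chromosome 4 from 97772734 to 98118874, was detected in cell 25 alone, at 11.2 RPKM (4%, interval 0.101 to 20.4%). It was above 0 in 4 more cells, with 5.70 RPKM in cell 34, 1.64 in cell 6, 1.09 in cell 14 and 0.04 in cell 7.

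The order by mean level per cell was Nfix at 11.9 ± 18.5, Nfic at 7.04 ± 11.9, Nfib at 3.53 ± 8.79 and Nfia at 0.788 ± 2.47 RPKM (SD over the 25 cells of 1 pool, which is no error of a condition). The spread over cells exceeded the mean for each gene and the ranges of neighbours in this order overlapped. Nfix made up 51.2% of the summed RPKM of the family, Nfic 30.3%, Nfib 15.2% and Nfia 3.38%. By mean level over all symbols, Nfix was at percentile 81.2, Nfic at 75.7, Nfib at 68.9 and Nfia at 58.3. Of all 30903 symbols, 42.7% were detected in at least 1 cell, as all 4 NFI genes were, 31.7% in at least 3 cells, as Nfib, Nfic and Nfix were, 26.3% in at least 5 cells, as Nfic and Nfix were, and 20.6% in at least 8 cells, as Nfix was. The members were chosen with such values known, so nothing is read from these counts.

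RPKM divides by gene length, and the 4 genes are long transcripts. Exon bases came to 10891 for Nfia, 14957 for Nfib, 6630 for Nfic and 7351 for Nfix, so that 10 RPKM at the median depth asked for about 197, 270, 120 and 133 reads of these genes in that order. Detection at 10 RPKM thus leaves out cells with many reads. By estimated reads, Nfic in cell 1 had 104 and Nfib in cell 11 had 143, although neither counted as detected. Conversely, the 0.03 RPKM of Nfib in cell 4 and the 0.04 RPKM of Nfia in cell 7 correspond to about 1 read each.

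**Figure D1:**
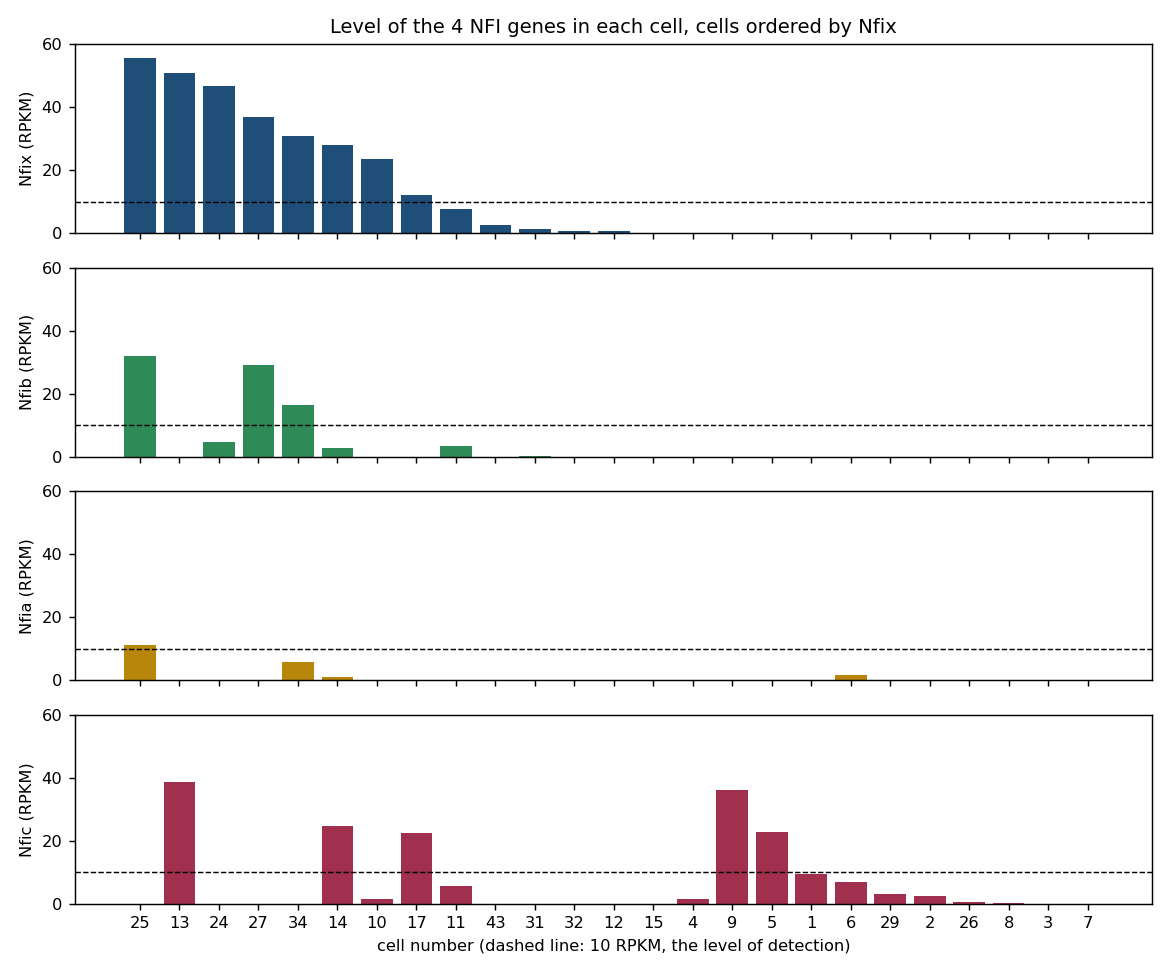
Level of Nfix, Nfib, Nfia and Nfic in RPKM (vertical axes, linear) in each of the 25 cells, numbered along the horizontal axis and ordered by Nfix; the dashed line is 10 RPKM. The 3 cells with Nfib are among the 8 with Nfix, whereas Nfic is found on both sides of the plot.

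At least 1 NFI gene was detected in 10 cells. Exactly 1 was found in 4 cells, 2 were found in 5 cells, and 3 were found in cell 25, which had Nfia, Nfib and Nfix. The other 15 cells had none at 10 RPKM. When every value above 0 was counted, cell 3 was the only cell with none of the genes, and cell 14 was the only one with all 4.

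Nfib went with Nfix. All 3 cells with Nfib also had Nfix (100% of the Nfib cells and 37.5% of the Nfix cells), where the product of their shares over 25 cells is 0.96 cells. Of the 8 cells with Nfib above 0, 7 had Nfix above 0, the exception being cell 4 with about 1 read of Nfib. Spearman's rho between the pair over the 25 cells was 0.63, and it lay between 0.57 and 0.72 when each cell was left out in turn. These points share 1 pool of mice, and 10 of them are at 0 for both genes. Nfia had its highest values in cells 25 and 34, with a rho of 0.40 with Nfib and 0.23 with Nfix, which without cell 25 were 0.25 and 0.07.

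Nfic had a negative rho with each of the other genes, but it was detected in as many Nfix cells as Nfib was. It shared cells 13, 14 and 17 with Nfix, which is 60% of the Nfic cells and 37.5% of the Nfix cells, beside a product of shares of 1.6 cells, and rho over the 25 cells was -0.19. Nfic and Nfib were detected together in 0 cells (product 0.6 cells, rho -0.28), and Nfic was listed at 0 in all 3 Nfib cells. Nfia and Nfic also shared 0 cells (rho -0.09). When every value above 0 was counted, Nfic shared 3 cells with Nfib, 2 with Nfia and 5 with Nfix. At 1 RPKM these overlaps were 2, 2 and 5 cells. With 3 and 5 cells for Nfib and Nfic, an overlap of 0 says little.

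**Figure D2:**
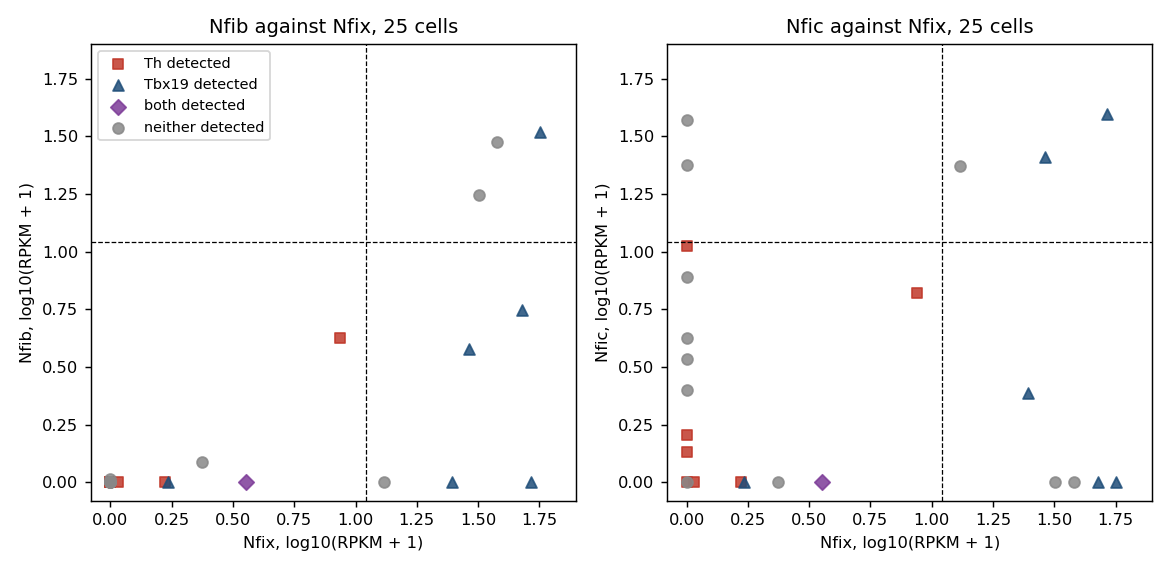
Level of Nfib (left) and of Nfic (right) against that of Nfix, as log10(RPKM + 1), with 1 point per cell; dashed lines mark 10 RPKM and symbols mark cells with Th or Tbx19. The 3 cells above the line for Nfib are right of the line for Nfix, while 3 of the 5 cells above the line for Nfic are right of it, and no cell with Th is above or right of a line; points at 0 overlie each other.

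Depth and RNA quality were compared beside these values. Estimated depth ran from 889640 to 2967032 reads per cell with a median of 1804552, and 3843 to 6183 genes per cell reached 10 RPKM. The 8 Nfix cells had a median of 1674805 reads, against 1866028 in the other 17, and 4924 detected genes, against 4896. The 3 Nfib cells had 1277701 reads, against 1835290 in the other 22, and the 5 Nfic cells had 1804552, against 1819601 in the other 20. Over the 25 cells, rho with depth was -0.33 for Nfix, -0.27 for Nfib, -0.18 for Nfia and 0.29 for Nfic. The cells with Nfix or Nfib were therefore not the deepest, and the part of depth in these patterns was not tested.

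Malat1, a nuclear noncoding RNA, had a higher median in the Nfix cells, with overlapping ranges. Its level was 78.7 to 174 RPKM (median 127) in the 8 Nfix cells, against 0 to 196 RPKM (median 85.7) in the other 17, and rho with Nfix over cells was 0.44. Of the 6 cells below 20 RPKM of Malat1, 0 had Nfix (which allows a share of up to 50%, as 3 counts of the total), against 8 of the other 19, and the highest Nfix value among the 6 was 1.36 RPKM. Nfib was in 0 of the 6, and Nfic was in 1 of them, cell 5. The highest Malat1 value, 196 RPKM, was in cell 43, where Nfix stood at 2.58 RPKM. The share of all genes that are absent from the 6 cells was not counted, so nothing is read from these counts of 0. The part of Malat1 in the detection of Nfix was not tested. Without these 6 cells, rho over the other 19 was 0.61 for Nfib and Nfix, 0.50 for Nfia and Nfib, 0.33 for Nfia and Nfix and -0.10 for Nfic and Nfix.

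**Figure D3:**
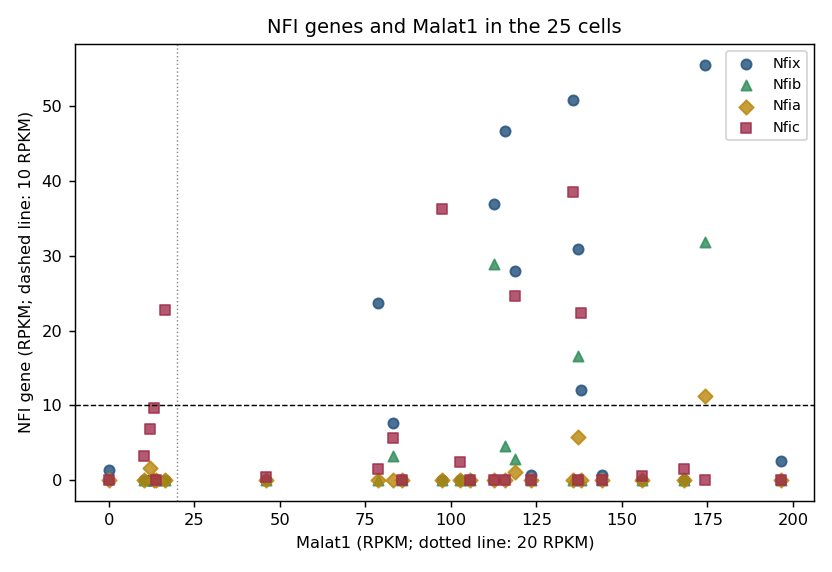
Level of each NFI gene (vertical axis, RPKM) against Malat1 (horizontal axis, RPKM) in the 25 cells, with 1 symbol per gene and cell; the dashed line is 10 RPKM and the dotted line 20 RPKM of Malat1. Left of the dotted line, among 6 cells, the only point above 10 RPKM is Nfic in cell 5.

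Since NFI genes are also genes of glia and tanycytes, markers of those cells were read in the same cells. All 12 neuronal markers were detected, and each cell had 9 to 12 of them. The Nfix cells held 10 to 12, against 9 to 12 in the others. Of the astrocyte markers, Gfap and Agt were listed at 0 in all 25 cells, and Aqp4 and Slc1a3 reached at most 0.07 RPKM. Of the 10, 4 were detected. Aldoc was in 6 of 8 Nfix cells against 14 of 17, and Sox9 in 2 of 8 against 4 of 17. Sox9 had a rho of 0.70 with Nfix and was highest in the Nfix cells 24 and 14, at 151 and 75.5 RPKM. Aldh1l1 was at 39.8 RPKM in cell 17, which had Nfic and Nfix, and Slc1a2 at 22.2 RPKM in cell 7. Of the 11 tanycyte and ependymal markers 8 were detected, while Rax and Nes were at 0. Prdx6 was in 20 cells (5 of 8 Nfix cells against 15 of 17), Col25a1 in 7 (2 of 8 against 5 of 17), Vim in 4 (1 of 8 against 3 of 17) and Crym in 2, both without Nfix. Lhx2 was found in cell 25 alone, at 15.1 RPKM, and that cell had 3 NFI genes. Of 8 microglial markers 1 was detected, Tmem119 at 25.5 RPKM in cell 25, and C1qa, C1qb and C1qc were at 0. The oligodendrocyte markers Mog, Olig1, Olig2 and Sox10 and the vascular marker Cldn5 were at 0 as well, but Mbp was in 14 cells (5 of 8 Nfix cells against 9 of 17) and the vascular marker Pecam1 in 4 (2 of 8 against 2 of 17).

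The summed level of the 10 astrocyte markers was 3.27 to 339 RPKM (median 127) in the 8 Nfix cells, against 0 to 190 RPKM (median 98.4) in the other 17. Aldoc, a glycolytic enzyme, was detected in 20 cells with a median of 75.8 RPKM, and made up 332 of the 339 RPKM in cell 25, where the sum was highest. The part of these markers in the detection of NFI genes was not tested. The 11 tanycyte and ependymal markers summed to 0 to 174 RPKM (median 62.9) in the Nfix cells, against 21.5 to 242 RPKM (median 106) in the others. For the 3 Nfib cells, the astrocyte sum was 3.27 to 339 RPKM, against 0 to 194 RPKM in the other 22, and the tanycyte sum was 0 to 56.1 RPKM, against 21.5 to 242 RPKM. The 5 Nfic cells had astrocyte sums of 0 to 190 RPKM, against 0 to 339 RPKM in the other 20.

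Detection of other genes was set beside each NFI gene as the share of cells with the gene among cells with the NFI gene, minus the share among cells without it. This was done for 8368 genes that were detected in 3 to 22 cells, and a difference of 50 percentage points or more was counted. With Nfix, 67 genes (0.801%) were more often detected and 74 (0.884%) less often. The groups were formed from the level of Nfix in these same cells, so these are descriptions, and which of the differences would recur in other mice was not tested.

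Htr2c, a serotonin receptor gene known for the control of feeding by arcuate neurons, had the largest positive difference with Nfix. Its level was 68.4 RPKM in cell 34, 28.7 in cell 24, 24.9 in cell 14, 24.2 in cell 10, 14.6 in cell 13 and 10.65 in cell 25, and it was listed at 0 in the Nfix cells 17 and 27. Among the 17 cells without Nfix it was above 0 in cell 4 alone, at 8.59 RPKM. Thus 6 of 8 Nfix cells had Htr2c, against 0 of 17 others, a difference of 75 points. Without any 1 cell the difference was 71.4 to 85.7 points, and without the 6 cells low in Malat1 it was again 75 points. At thresholds of 1, 5 and 20 RPKM for all genes, Nfix included, it was 47.4, 60.4 and 57.1 points, so at 1 RPKM it was under 50 points.

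The next 5 genes were each detected in 7 of 8 Nfix cells, against 4 of 17 others, a difference of 64.0 points. They were Nrip3, the metabotropic glutamate receptor gene Grm5, Ugp2, which makes UDP-glucose, the sodium-activated potassium channel gene Kcnt1, and Tnrc6a, a scaffold of microRNA silencing. Their ranges overlapped between the groups. Grm5 was at 3.06 to 66.6 RPKM (median 24.6) in Nfix cells, against 0 to 44.2 RPKM (median 0) in the others, and Ugp2 was at 2.11 to 29.7 RPKM (median 17.9), against 0 to 86.3 RPKM (median 2.74). At 1 RPKM all 5 differences were under 50 points, with 13.6 for Nrip3, 46.1 for Grm5, 40.9 for Ugp2, 31.8 for Kcnt1 and 19.5 for Tnrc6a. At 5 RPKM they were 46.5 for Nrip3 and for Grm5, 51.4 for Ugp2, 57.6 for Kcnt1 and 27.8 for Tnrc6a, and at 20 RPKM 63.5 for Nrip3, 34.9 for Grm5, 0.794 for Ugp2, 26.2 for Kcnt1 and 65.9 for Tnrc6a. None of the 5 thus kept 50 points at all of these thresholds. Without the 6 cells low in Malat1 they were 69.3 for Nrip3, 60.2 for Grm5 and for Ugp2, and 51.1 for Kcnt1 and for Tnrc6a. Hspa1a, a heat shock gene induced by stress, was in 7 of 8 Nfix cells against 8 of 17 (40.4 points, rho 0.33), and its part in these differences was not tested.

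Genes less often detected with Nfix were led by Nucb2, which encodes a calcium-binding protein and the precursor of the satiety peptide nesfatin. It was in 0 of 8 Nfix cells, against 13 of 17 others, at 0 to 6.04 RPKM (median 1.01) against 0 to 203 RPKM (median 45.8). Zfp358, a zinc finger protein gene, was in 0 of 8 against 12 of 17, and Cby1, which encodes an antagonist of beta-catenin, in 2 of 8 against 16 of 17. Without the 6 cells low in Malat1, the differences were -72.7 points for Nucb2 (0 of 8 Nfix cells against 8 of 11 others), -72.7 for Zfp358 and -65.9 for Cby1. At thresholds of 1, 5 and 20 RPKM they were -14.9, -47.9 and -72.2 points for Nucb2, -37.0, -57.6 and -66.7 for Zfp358, and -29.2, -49.3 and -80.2 for Cby1. Thus at 1 RPKM none of the 3 differed by 50 points, and at 5 RPKM Zfp358 alone did.

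**Figure D4:**
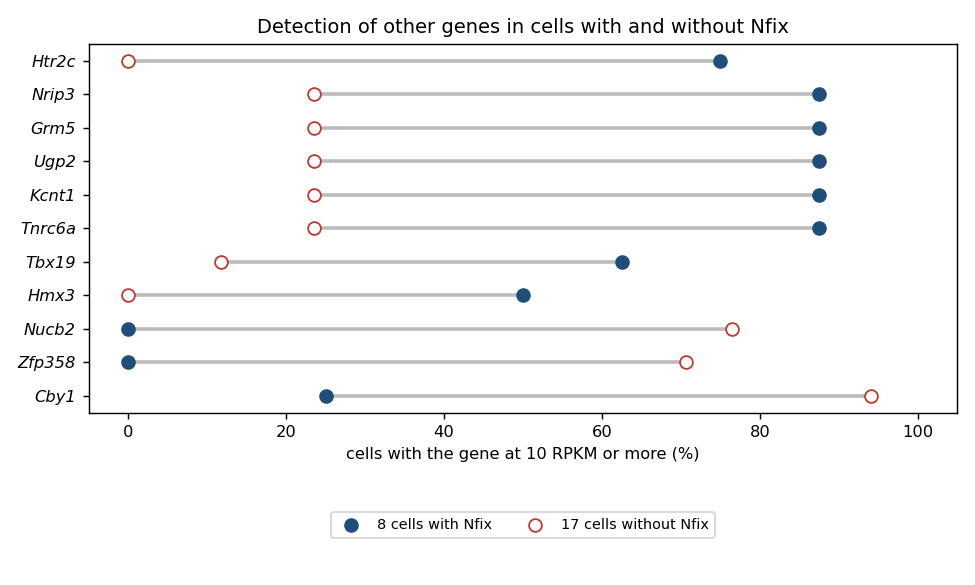
Share of cells in which a gene was detected (horizontal axis, percent), among the 8 cells with Nfix (filled) and the 17 without (open), for the genes with the largest differences in each direction and the arcuate factors Tbx19 and Hmx3. Htr2c and Hmx3 were in 0 of the 17 cells without Nfix, and Nucb2 and Zfp358 in 0 of the 8 cells with it.

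Among 27 transcription factors known from arcuate neurons, 24 (88.9%) were detected in at least 1 cell, and 2 of the 18 that entered the comparison were more often detected with Nfix by 50 points or more. The first was Tbx19, a T-box factor known for driving Pomc in pituitary corticotrophs. Its level in Nfix cells was 158 RPKM in cell 10, 156 in cell 13, 106 in cell 14, 60.3 in cell 25 and 17.1 in cell 24, and it was listed at 0 in the other 3. Among cells without Nfix it was found in cell 32 at 112 RPKM and in cell 43 at 28.0 RPKM. The shares were 5 of 8 against 2 of 17, a difference of 50.7 points that ran from 45.4 to 59.7 points when each cell was left out and was 44.3 points without the cells low in Malat1. At 1, 5 and 20 RPKM it was 47.4, 43.1 and 46.0 points, each under 50. Nfix was above 0 in all 7 Tbx19 cells, but at 0.72 and 2.58 RPKM in cells 32 and 43.

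The second was Hmx3, a homeobox factor, at 92.1 RPKM in cell 34, 65.0 in cell 10, 43.3 in cell 24 and 12.4 in cell 13. It was listed at 0 in every other cell, so 4 of 8 Nfix cells had it, against 0 of 17 others. This difference lay exactly on 50 points. It was 42.9 to 57.1 points when each cell was left out, 36.4, 44.4 and 42.9 points at 1, 5 and 20 RPKM, and 50 points without the cells low in Malat1. All 4 also had Htr2c. Bmp3, a secreted ligand chosen for mention after its values were seen, was in 5 of 8 Nfix cells, against 0 of 17. Among the more widespread arcuate factors, Tbx3 was in 6 of 8 Nfix cells against 5 of 17 (45.6 points), Dlx2 in 6 of 8 against 7 of 17 (33.8 points), Nkx2-1 in 5 of 8 against 7 of 17, Six3 in 8 of 8 against 14 of 17, Six6 in 8 of 8 against 15 of 17 and Isl1 in 5 of 8 against 13 of 17. Lhx1 was in 0 of 8 against 7 of 17.

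At 10 RPKM, no NFI gene was detected in a cell with Th, the tyrosine hydroxylase gene of dopamine synthesis. In these 8 cells Nfix was detected in 0 and reached at most 7.68 RPKM (cell 11), against 8 of the other 17 cells. Nfic was in 0 of the 8, at most 9.59 RPKM (cell 1), against 5 of 17. Nfib was in 0 against 3, and Nfia in 0 against 1. A count of 0 of 8 allows a share of up to 37.5%, taken as 3 counts of the total and for counting error only. Cells 1 and 11 lay under the threshold by little, and at 5 RPKM both would count. By estimated reads, cell 11 had 168 of Nfix, 143 of Nfib and 111 of Nfic, and cell 1 had 104 of Nfic. The share of all genes that are absent from these 8 cells was not counted, so nothing is read from the counts of 0.

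The other cell markers held NFI genes in part. Of 10 cells with Pomc, the melanocortin precursor, 3 had Nfix, 3 had Nfic and 0 had Nfib, against 5, 2 and 3 of the other 15. Of the 10 cells with the peptide gene Cartpt, 0 had Nfib, against 3 of the other 15. With every value above 0 counted, Nfib was in 0 of the 10 and in 8 of the 15, among them cell 4 at 0.03 RPKM. For Pomc and for Cartpt, a count of 0 of 10 allows a share of up to 30%. The share of all genes that are absent from these cells was not counted, so nothing is read from these counts of 0. Of 10 Glp1r cells 2 had Nfix, against 6 of 15, and of 9 Agrp cells 2 had Nfix, against 6 of 16. Among the 5 Sst cells, cell 25 had Nfia, Nfib and Nfix and cell 9 had Nfic. Of the 2 cells with the glutamate transporter Slc17a6, cell 27 had Nfib and Nfix and cell 7 had none of the family.

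Nfib and Nfic were set beside other genes in the same way, with fewer cells. With 3 Nfib cells a share moves in steps of 33.3 points, and 391 genes (4.67%) were more often and 407 (4.86%) less often detected with Nfib. Cep250, a centrosome protein gene, had the largest difference, with 3 of 3 against 0 of 22. A transcript listed by a cDNA number was in 3 of 3 against 1 of 22, and Mia, Gls2, a glutaminase, and Oplah, a glutathione-cycle enzyme, were in 3 of 3 against 2 of 22. Kars, the lysyl-tRNA synthetase, and Cops3, a subunit of the COP9 signalosome, were in 0 of 3 against 21 of 22, and Sptssa, of sphingolipid synthesis, in 0 of 3 against 20 of 22. The levels of Kars were 0 to 2.38 RPKM, against 0 to 201 RPKM (median 86.4). Among list genes, the granin Vgf was in 3 of 3 against 11 of 22, the neuropeptide Y receptor gene Npy2r in 0 of 3 against 11 of 22 and the peroxiredoxin gene Prdx6 in 1 of 3 against 19 of 22. Hspa1a was in 3 of 3 against 12 of 22 (45.5 points). Without the cells low in Malat1, the differences of the genes named from Cep250 to Sptssa were 87.5 to 100 points in size. Those of Vgf, Npy2r, Prdx6 and Hspa1a were not recomputed. At 1 RPKM the differences of Cep250 (45.6 points), Gls2 (23.7), Oplah (28.9), Kars (-28.1) and Sptssa (-22.8) were under 50 points in size. Mia then stood at 83.3 and Cops3 at -50.

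With Nfic, 111 genes (1.33%) were more often and 118 (1.41%) less often detected. Eftud1, of ribosome maturation, was in 5 of 5 Nfic cells against 4 of 20, Ankrd16 in 5 of 5 against 5 of 20, the focal adhesion adaptor Tgfb1i1 in 4 of 5 against 1 of 20, and Supt16, a histone chaperone subunit, in 4 of 5 against 2 of 20. Egfl7 and the porphyrin transporter Abcb6 were in 5 of 5 against 6 of 20. Ctps, which makes CTP, and Asic2, an acid-sensing channel gene, were in 0 of 5 against 15 of 20, and Nubp2 in 0 of 5 against 14 of 20. Hspa1a was in all 5 Nfic cells against 10 of 20, and the prolactin receptor gene Prlr in 0 of 5 against 10 of 20. Most of these differences rest on the threshold. At 5 RPKM they were 38.2 points for Tgfb1i1, 45.6 for Egfl7, 14.7 for Supt16, -33.1 for Ctps and for Asic2 and -45.6 for Nubp2, all under 50 points in size, whereas Eftud1 and Ankrd16 stood at 51.5 and Abcb6 at 64.0. At 1 RPKM Abcb6, at 51.9 points, was the only one of the 9 past 50, with Nubp2 at -3.21 and Eftud1 at 19.9. Without the cells low in Malat1 the 9 differences were 61.7 to 86.7 points in size. Hspa1a and Prlr are not among these 9 and were not recomputed.

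Likeness of level was taken as Spearman's rho over the 25 cells, for genes detected in at least 3 cells. Of 9782 genes, 35 (0.358%) reached 0.6 or more with Nfix and 18 (0.184%) reached -0.6 or less. The closest to Nfix were Plxna1 (rho 0.76), a semaphorin co-receptor, Sox9 (0.70), the importin gene Ipo11 (0.69), Cacna1b (0.69), which encodes a presynaptic calcium channel, Trp53inp2 (0.69), of autophagy, and the cytoskeletal linker Macf1 (0.68). The farthest were Asb4 (-0.76), the beta-secretase gene Bace1 (-0.73) and Klf5 (-0.72). Plxna1, at 0 to 26.6 RPKM, was detected in 5 of 8 Nfix cells against 2 of 17, and Asb4, at 0 to 238 RPKM, in 1 of 8 against 13 of 17.

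The genes closest to Nfib were Lgals4 (rho 0.82), a galectin, Mia (0.79), the interferon-linked Ifi27 (0.73), a transcript listed by a cDNA number (0.71), the kinase gene Dyrk2 (0.69) and the kinesin gene Kif22 (0.66), and the farthest were Ppp1r1a (-0.68), Aamp (-0.68) and Ebna1bp2 (-0.64). Those closest to Nfic were Zdhhc22 (0.69), Fhad1 (0.68), the adenylate cyclase gene Adcy5 (0.66), Zfp467 (0.65), Hadha (0.65) and Lsm2 (0.64), and the farthest were Sos1 (-0.74), the splicing factor gene Prpf8 (-0.68) and Pacsin1 (-0.67). For Nfia, 20 cells are tied at 0, and the closest were Aar2 (0.70), Iqsec2 (0.67), Mylip (0.66), a transcript listed by a cDNA number (0.65), Fbxo11 (0.64) and Atp6v1d (0.63), and the farthest Abhd8 (-0.66), Nol6 (-0.64) and Rpn2 (-0.61). Genes at 0.6 or more numbered 29 (0.296%) for Nfib, 17 (0.174%) for Nfic and 12 of 9783 (0.123%) for Nfia. Genes at -0.6 or less numbered 11 (0.112%) for Nfib, 8 (0.0818%) for Nfic and 3 (0.0307%) for Nfia.

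Genes that are known to depend on or work with NFI factors elsewhere were read from lists. Of 10 genes linked to NFI factors in glia, 4 were detected, and Gfap and Fabp7 were at 0 in all cells. Sox9, a factor that precedes and partners Nfia in gliogenesis, was at 151 RPKM in cell 24, 75.5 in cell 14, 39.4 in cell 32, 24.6 in cell 11, 15.4 in cell 31 and 14.0 in cell 43. It was detected in 2 of 8 Nfix cells against 4 of 17 others, so detection did not divide by Nfix, but Nfix was above 0 in all 6 Sox9 cells. Mmd2 was in 9 cells, 3 of 8 Nfix cells against 6 of 17, Hes1 in 2 and Hes5 in 1.

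Of 9 genes linked to NFI factors in maturing neurons, 5 were detected. The adhesion gene Cdh2 was in 6 of 8 Nfix cells against 7 of 17, Cntn2 in 2 of 8 against 6 of 17, Bbx in 3 of 8 against 1 of 17, Wnt7a in 2 of 8 against 2 of 17 and Ephb1 in 1 of 8 against 3 of 17. Gabra6, Grin2c and Insc were at 0. Of 10 reported partners or co-regulators of NFI proteins, Atf4 and Jun were in 23 cells each, the co-repressor Ski was in 5 of 8 Nfix cells against 7 of 17 and the acetyltransferase gene Crebbp in 2 of 8 against 9 of 17. Of the genes of these 3 lists that entered the comparison (2, 5 and 6), 0 differed by 50 points with Nfix. A list of 14 factors known to mark early- or late-born neurons (temporal factors) had 4 genes in the comparison, of which 0 differed by 50 points. The median rho with Nfix was 0.52 over the 2 usable glial genes, 0.09 over 5 neuronal genes, 0.13 over 8 partners, -0.07 over 4 temporal factors and 0.00 over 19 arcuate factors, beside -0.01 over 9780 genes in all. Onecut1, Onecut2, Neurod2, Neurod6 and Zeb2 were at 0 in all cells. Lmo3, the temporal factor in most cells (17), was in 5 of 8 Nfix cells against 12 of 17 (rho 0.05 with Nfix). Pou2f2 was in 1 of 8 against 2 of 17 (rho -0.20) and Pou3f1 in 0 of 8 against 3 of 17 (rho -0.23). Tcf4, a basic helix-loop-helix factor on the temporal list, was in 4 of 8 against 4 of 17. Its rho was 0.60 with Nfix and 0.56 with Nfib. St18 was in 2 of 8 against 0 of 17.

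The NFI binding motif was searched in RefSeq promoters (GRCm38, windows of equal length, both strands). The full palindrome, TTGGC and GCCAA with 5 bases between them, was in 12 of 32851 promoters (0.0365%), and a TTGGC arm in 46.7% of them, which counts the promoters with the palindrome too. Promoters were found for 46 of the 67 genes more often detected with Nfix and for 55 of the 74 genes less often detected. The arm was in 29 of 64 promoters of the first set (45.3%) and in 36 of 69 promoters of the second (52.2%), and the palindrome in 0 of either. Htr2c, the leading gene, has 1 promoter with an arm, at chrX:146962263-146962562 on the plus strand, which is printed because of the values given above. Capitals mark the arm, and a match of 5 letters is a description of the sequence only.
Htr2c: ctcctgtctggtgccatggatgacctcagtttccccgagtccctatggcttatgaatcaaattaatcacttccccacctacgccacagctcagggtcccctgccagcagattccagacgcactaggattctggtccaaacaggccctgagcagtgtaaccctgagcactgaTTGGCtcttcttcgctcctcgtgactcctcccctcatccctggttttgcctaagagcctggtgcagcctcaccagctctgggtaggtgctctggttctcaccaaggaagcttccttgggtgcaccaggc

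Neighbouring genes were checked because the libraries carry no strand. No annotated gene with a value in the table within 40 kb of Nfic or Nfix shared exon bases with it. Dand5, upstream of Nfix at chromosome 8 from 84815405 to 84822823, was detected in 6 cells, 4 of them with Nfix (rho 0.38), while Gadd45gip1, detected in all 25 cells, had a rho of -0.03 with Nfix. Next to Nfic, the neuronal RNA-binding protein gene Celf5 was in 19 cells (rho -0.31) and Ncln in 16 (rho 0.41).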

How the data were processed

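Per the labels' protocols, Smart-Seq2 and Nextera XT were used to prepare libraries from the polyadenylated RNA of 25 single cells. This method counts no molecular identifiers and marks no strand. The submitters' processing notes name featureCounts 1.4.6, TopHat2 2.0.14, SAMtools 0.1.19, Picard 2.5.0 and bcl2fastq, and give GRCm38 and mm10 as builds, without roles. The values were deposited by the authors as 1 table of RPKM per gene and cell, to judge by its numbers. Its name speaks of gene counts, but low values multiplied by exon length fall on steps of whole reads. The detection level of 10 was therefore read as 10 RPKM.

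Of 33082 rows, 26 with date numbers in place of names were left out, and each of 755 repeated symbols was represented by its row of highest sum, which gave 30903 symbols. Exon lengths came from GENCODE M21 for 22754 of them. Depth was estimated from the steps (tested on simulated data for 22754 genes at 12 depths, largest error 0.529%). Values times length summed to 1.38 to 1.47 times the expected total, so read numbers are estimates. Clopper-Pearson intervals cover counting error only.

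The members, gene lists and comparisons were chosen with earlier results of these data known. Named were the 4 genes, for each the 6 highest and 3 lowest in rho and in difference of share, up to 8 frequent genes of each list and any list gene past 50 points, and Malat1. Genes listed only by a cDNA number are not named. A few genes within this rule are not reported here. Alternatives were thresholds of 1, 5 and 20 RPKM or 20 reads, rescaling, Pearson's r, other filters, a difference of 40 points, and leaving out cells. Python 3.11.15, numpy 2.4.6, pandas 2.3.3 and scipy 1.17.1 were used.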

Additional observations from a re-analysis of the deposited data

How the results depend on the processing

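No paired analysis was possible because all cells form 1 group of 1 pooled sample. Over all alternatives, leaving out cells included, 32 recomputed counts moved (numbers of genes by more than 1.5 times, numbers of cells beyond the 95% interval of their share) and 356 did not. That interval is wide for few cells. At 1 RPKM, Nfia in 4 cells instead of 1, Nfib in 6 instead of 3 and Nfib with Nfic in 2 instead of 0 counted as not moved. Leaving out 1 cell can change an overlap by 1 cell at most, so the tally is no measure of stability. At 1 RPKM, 12 cells had Nfic and 11 had Nfix. Genes more and less often detected then numbered 187 and 97 with Nfib and 59 and 33 with Nfic, and 40 were more often detected with Nfix. At 5 RPKM the counts were 50 and 50 with Nfic, and 45 genes were less often detected with Nfix. At 20 RPKM, 0 cells had Nfia, so it shared 0 with Nfib and 0 with Nfix. With 20 or more estimated reads as the level, 11 cells had Nfic and 10 had Nfix. Without the 6 cells low in Malat1, 125 genes were less often detected with Nfix. At 40 points, more and less often detected genes were 657 and 780 with Nfib, 280 and 348 with Nfic, and 184 and 221 with Nfix.

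Leaving out each cell in turn, an alternative chosen after seeing the data, gave 369 to 402 genes more and 361 to 411 less often detected with Nfib over the 22 cells that leave 3 Nfib cells; without cell 25, 27 or 34 no value could be had. It gave 72 to 199 more and 77 to 210 less with Nfic, and 76 to 102 more and 81 to 119 less with Nfix. All leave-one-out counts with Nfix lay above the count over all 25 cells. Leaving out a cell without Nfix makes that group smaller and changes the steps in which its shares move. No counted gene can then fall under the cut-off of 50 points, while genes just short of it can reach it. For these cells the count therefore cannot fall, and its rise is no sign of stability. For the cells with Nfix, the cause of the rise was not tested. Without cell 25 the overlaps of Nfia with Nfib and with Nfix were 0 (range 0 to 1), and the overlaps of Nfib with Nfix and of Nfic with Nfix ranged from 2 to 3. As Pearson's r of log2(RPKM + 1), Nfia had 0.67 with Nfib and 0.44 with Nfix, and Nfic had 0.05 with Nfix, where rho was -0.19. At 20 RPKM, the transcript listed by a cDNA number that led with Nfib stood at -8.70 points.

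At 10 RPKM, Nfib has about 270 reads in the median cell and 133 in the shallowest, and Nfic about 120 and 59.0. Detection in 3 to 8 cells sets wide intervals, and each count of genes rests on those few cells.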
